A study of Rattus norvegicus with 8 samples.

Results

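The array carried 53 mRNA probes for 51 rat chemokine and chemokine receptor genes, among 13888 genes named through 14274 mRNA probes. A gene was taken when the RefSeq accession of its probe led to a rat symbol that begins with Ccl, Cxcl, Cx3cl, Xcl, Ccr, Cxcr, Cx3cr, Xcr or Ackr and a digit, a rule that uses no measured value. They comprised 31 ligands (18 CC, 11 CXC, 1 CX3C and 1 XC) and 20 receptors (10 CC, 6 CXC, 1 CX3C, 1 XC and 2 atypical). Cxcl12 had 3 probes and every other gene had 1. Of the 57 rat genes with such symbols in the reference, 6 had no probe here (Ackr1, Ackr4, Ccl1, Ccl12, Ccr8 and Cxcl3).

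RNA came from male F344 rats at week 95. NNK is a nitrosamine of tobacco smoke that causes lung tumors in this strain. The 3 lung tumor samples, described in the study's methods as moderately differentiated adenocarcinoma, and the 3 matched normal lung samples all came from rats given NNK, so the normal lung was exposed lung and lung of untreated rats was not analysed here. Blood was a clot from 1 blood sample of the control group and 1 of the group given NNK. How many rats each sample came from is not stated.

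Chemokines are small secreted proteins that guide the movement of leukocytes along gradients. They act through receptors coupled to G proteins of the inhibitory class, and atypical receptors (Ackr) bind chemokines without that signal and remove them. Inflammatory chemokines draw neutrophils, monocytes and activated lymphocytes into tissue, whereas homeostatic ones place lymphocytes in lymphoid tissue and mucosa. In the lung they are made by epithelium, endothelium, alveolar macrophages and lymphocytes.

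The 3 normal arrays differed from each other by 0.819 to 1.38 times the spread expected from repeat spots of the same probe, and lung tumors 2 and 3 by 0.585 times that spread. Lung tumor 1 differed from tumors 2 and 3 by 6.32 and 6.52 times, and normal from tumor arrays by 24.0 to 34.0 times. The normal samples, and tumors 2 and 3, were therefore about as alike as repeat measurements of the same RNA, and p-values over the 6 arrays measure only the spread between these arrays, which may be technical. Lung results are given over the 6 arrays, and the calls were also made with the near-identical arrays counted once (1 normal sample against 2 tumor samples, where the lone sample is assumed to vary like the tumors). Normal 1 to 3 and tumor 1 shared a scan, tumors 2 and 3 another, and both blood arrays were scanned apart from these. As checks of the labels, the surfactant genes Sftpa1, Sftpb, Sftpc and Sftpd cleared background on each of the 6 lung arrays, and the red-cell genes Hbb and Alas2 on both blood arrays. These markers were not exclusive, since Sftpa1 and Sftpd also cleared it on both blood arrays, Sftpb on 1 and Sftpc on neither, and Hbb and Alas2 on all 6 lung arrays.

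An mRNA probe has a single spot, so a spot that the scanner software marked as an outlier (non-uniform, or apart from its repeats) leaves no value on that array. Such marks fell on 10 of the 159 spots of the 53 probes on the normal arrays and on 29 of 159 on the tumor arrays. Values are log2 of the processed signal after quantile normalization within the lung arrays or within the blood arrays, and levels of different probes are not compared, although the signals of a marker list are summed to show its level. A probe was called higher or lower in tumor when limma gave a fold change of at least 2 and a Benjamini-Hochberg adjusted p of at most 0.05 over all probes tested. Where marks left too few values for that test, the result is from a second limma fit in which marked spots were kept, and it is named as such.

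In lung 40 of the 53 probes (75.5%) cleared background on 3 or more of the 6 arrays, against 74.6% of all mRNA probes. Of these, 36 were above background on all 6 arrays. The 13 that did not pass were Ccl11, Ccl22, Ccl24, Ccl25 and Cxcl9 among the ligands and Ccr2, Ccr3, Ccr4, Ccr7, Ccr9, Ccr10, Cxcr5 and Xcr1 among the receptors. The filter thus kept 28 of the 33 ligand probes and 12 of the 20 receptor probes. Ccl11 (eotaxin, an eosinophil attractant) was above background on tumors 2 and 3 alone, at 3.66 and 3.69 log2 units.

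**Figure D1:**
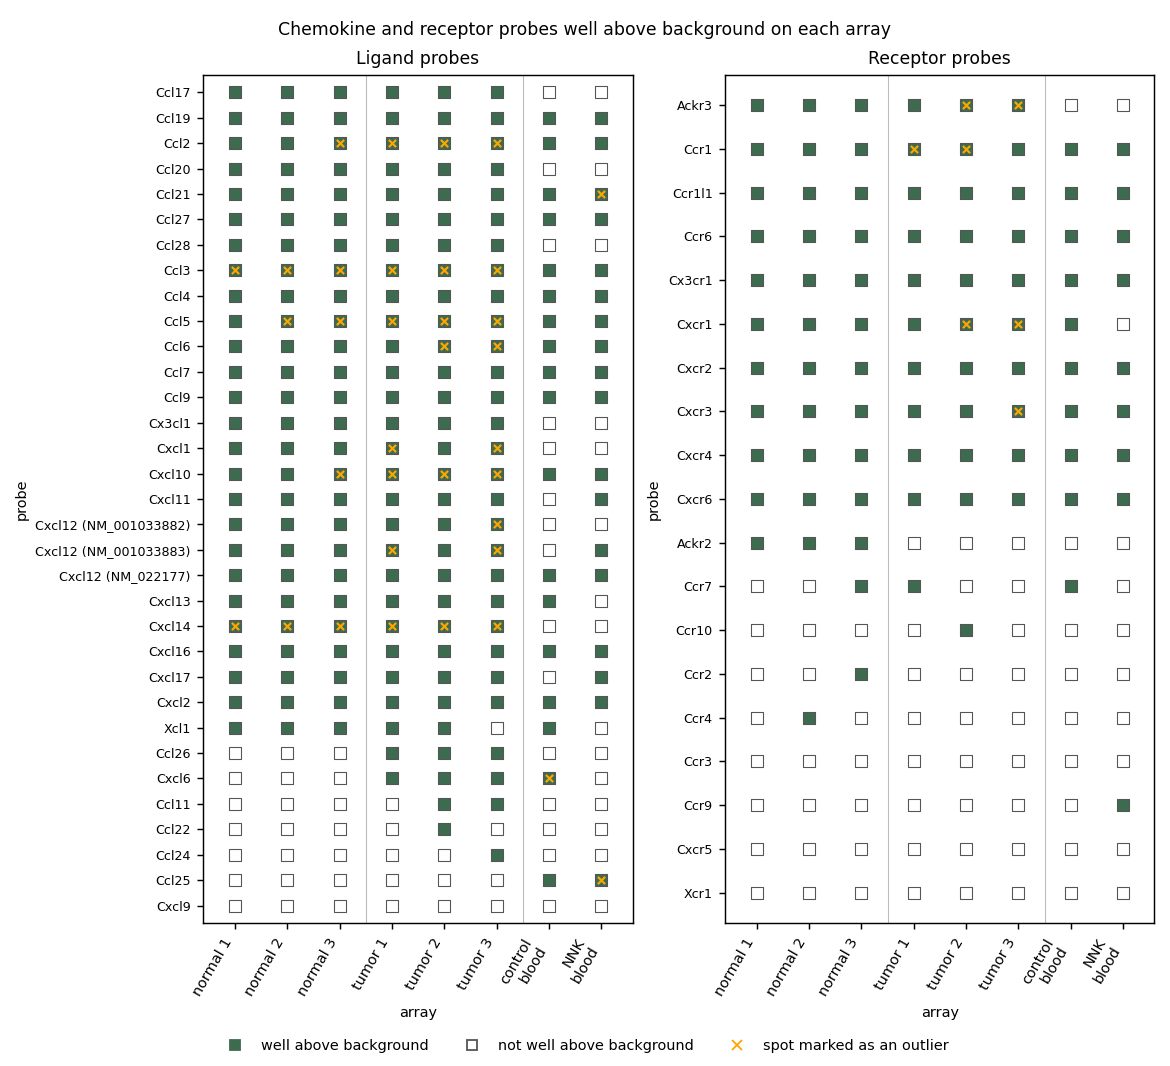
Each square is a chemokine or receptor probe (52 rows) on an array (8 columns), filled where the probe was well above background and crossed where its spot was marked as an outlier. Of these rows, 35 are filled on all 6 lung arrays, 23 on both blood arrays and 4 on no array.

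Without marked spots 29 of the 40 probes could be tested. Of these, 6 were called higher in lung tumor (Ccl28, Cxcl13, Ccl9, Cxcl6, Ccl19 and Cxcl17) and 5 lower (Ackr2, Ccl4, Ccl21, Xcl1 and Cxcl2), which is 37.9% of them, beside 28.3% of the mRNA probes tested (11.5% higher and 16.8% lower). With marked spots kept all 40 were tested and 7 were called higher and 11 lower, 45% of them beside 27% of mRNA probes (11.7% higher and 15.3% lower). The calls that this fit added were Ccr1 among the higher and Ccl5, Ccl3, Cxcl1, Ackr3 and 2 of the 3 Cxcl12 probes among the lower.

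Ligands made up most of the calls, 15 of 28 ligand probes (53.6%) and 3 of 12 receptor probes (25%) with marked spots kept; the difference between these shares was not tested. The median log2 fold change was 0.21 over the 40 probes and 0.02 over the 11432 mRNA probes in the same fit. Without marked spots it was 0.33 over 29 probes and -0.001 over 8637 mRNA probes. Members moved in both directions, so these medians do not describe single genes. Of the 22 probes not called, 15 had an adjusted p of at most 0.05 but less than a 2-fold change. The 3 tumor values did not overlap the 3 normal values for 33 of the 40 probes (17 above and 16 below), beside 73.6% of mRNA probes.

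**Figure D2:**
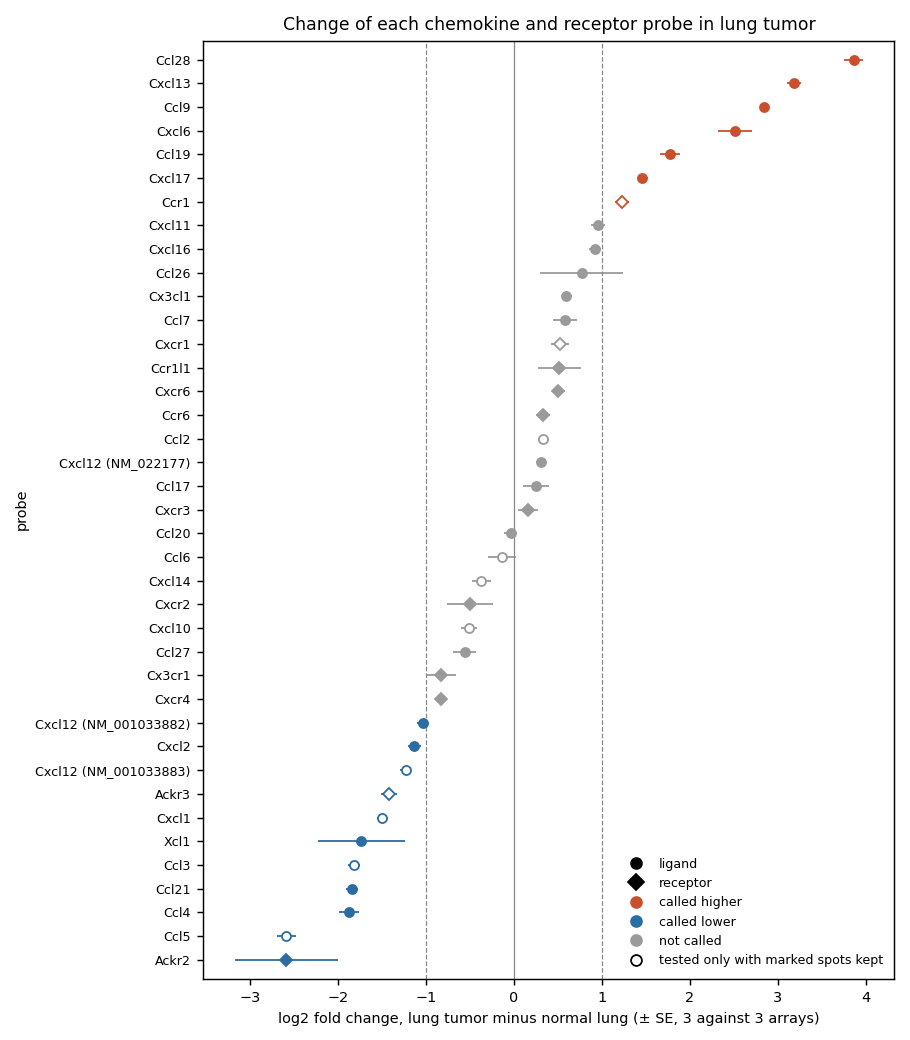
Log2 fold change of 39 of the probes that passed the filter, lung tumor minus normal lung, with its SE from the limma fit on 3 against 3 arrays with marked spots kept; dashed lines mark a 2-fold change. Ccl28 (3.86) stands at the top and Ccl5 (-2.58) near the bottom, the values of Ackr2, Cxcl6 and Ccl26 rest on a group that was not above background, and open symbols mark the 11 probes that were tested only with marked spots kept.

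Ccl28 (NM_053700), an epithelial chemokine that draws IgA-secreting cells to mucosal surfaces, read 4.85, 4.58 and 4.58 log2 units in normal lung 1 to 3 and 8.65, 8.50 and 8.44 in tumors 1 to 3. Every tumor lay far above every normal sample, a 14.5-fold difference (log2 fold change 3.86 ± 0.11 SE, adjusted p = 6.44e-06). With the normexp background correction, which adds an offset of 50 to every signal, the Ccl28 log2 fold change was 2.14 and the call held. Its receptor Ccr10 was above background on tumor 2 alone (3.07), and Ccl27, another Ccr10 ligand, was slightly lower in tumor (log2 fold change -0.56 ± 0.13, adjusted p = 0.0128, below 2-fold).

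Cxcl13 (NM_001017496), the ligand that places B cells in lymphoid follicles, read 8.11, 8.09 and 8.33 in normal lung and 11.40, 11.34 and 11.35 in tumor. The groups were 9.09-fold apart with no overlap (3.18 ± 0.08, adjusted p = 5.59e-06). Its receptor Cxcr5 was not above background on any of the 8 arrays. Among the B cell markers measured, Cd22 was called lower (log2 fold change -1.39) and Cd79b higher, although Cd79b was above background on no normal array and passed the filter through the tumor arrays alone. Pax5 and Blk were not called, and with near-identical arrays counted once none was. The summed signal, most of which was Cd22, was 543 to 563 in normal lung and 222 to 344 in tumor. Their part in the Cxcl13 result was not tested. A summed signal here and below is led by the brightest probes of its list.

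Cxcl17 (NM_001107491), a ligand of mucosal and airway epithelium, read 15.29, 15.41 and 15.45 in normal lung and 16.83, 16.87 and 16.83 in tumor. All 3 tumors were higher (2.75-fold, 1.46 ± 0.06, adjusted p = 2.1e-05). Cxcl16 (NM_001017478), a transmembrane chemokine, was higher by less than 2-fold (14.69, 14.71 and 14.81 against 15.76, 15.62 and 15.60, log2 fold change 0.92 ± 0.07, adjusted p = 0.000181), and so did its receptor Cxcr6 (0.51 ± 0.08, adjusted p = 0.00233). Of 4 epithelial markers, Krt8 and Krt18 were called higher and Epcam and Cdh1 were not, and their summed signal went from 214236 to 217004 in normal lung to 322258 to 332173 in tumor. With marked spots kept, 4 of 5 type 1 alveolar markers were called lower. Their summed signal was 934144 to 947133 in normal lung and 271623 to 282699 in tumor. In the same fit 1 of 5 type 2 alveolar markers was called higher (897263 to 933843 and 970088 to 994627). Of 3 club and airway markers, 1 was as well (282987 to 325352 and 292416 to 313870). With near-identical arrays counted once, 3 of the type 1 calls held, and neither the type 2 call nor the club and airway call did. The part of these lists in the values of Ccl28, Cxcl17 and Cxcl16, the last of which was not called, was not tested. In bulk tissue more cells of a type and more RNA per cell cannot be told apart.

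**Figure D3:**
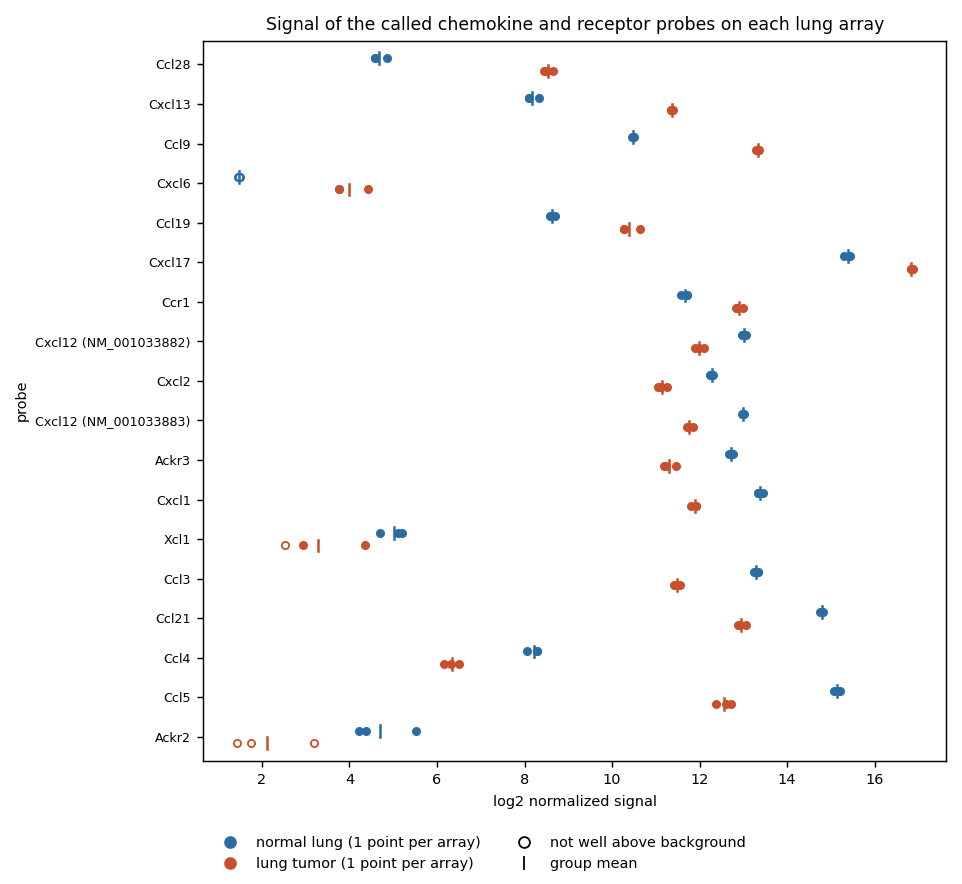
Log2 normalized signal of the 18 probes called with marked spots kept, on each of the 3 normal lung and 3 lung tumor arrays, with bars at the group means. No called probe has overlapping groups; the widest scatter is in the dim probes Ackr2 and Xcl1, where tumor 1 lies nearest to normal lung.

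Ligands of the neutrophil receptor Cxcr2 split. Cxcl1 (NM_030845) read 13.34, 13.46 and 13.35 in normal lung and 11.93, 11.80 and 11.93 in tumor, with marks on tumors 1 and 3. It was 2.82-fold lower in tumor with no overlap (-1.49 ± 0.07, adjusted p = 2.03e-05 with marked spots kept). Cxcl2 (NM_053647) fell by less, from 12.26, 12.25 and 12.32 to 11.27, 11.05 and 11.11 (2.19-fold, -1.13 ± 0.07, adjusted p = 9.67e-05). Cxcl6 (NM_022214) went the other way. It was not above background on any normal array (1.49, 1.45 and 1.47). On all 3 tumor arrays it was above background, though dim (4.43, 3.77 and 3.75), so the tumors were at least 1.73-fold higher. That bound is below 2-fold. The probe passed the filter through the tumor arrays alone, so its call cannot show more than the bound. With normexp the Cxcl6 call was lost (log2 fold change 0.24, adjusted p = 0.0697).

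The receptors of these ligands differed by less than 2-fold. Cxcr2 read 5.11, 5.29 and 5.27 in normal lung and 5.31, 4.50 and 4.37 in tumor, and tumor 1 lay with the normal samples (-0.50 ± 0.26, adjusted p = 0.149). Cxcr1 read 12.29, 12.22 and 12.23 against 12.97, 12.62 and 12.72, a difference below 2-fold (0.53 ± 0.10, adjusted p = 0.00626 with marked spots kept). Of 5 neutrophil markers, S100a8 (log2 fold change -2.12), Csf3r (-2.40) and Mmp8, which was above background on 1 of 3 tumor arrays, were called lower and Camp and Fcgr3a were not, with a summed signal of 42372 to 44853 in normal lung and 31772 to 40949 in tumor. Their part in the lower Cxcl1 and Cxcl2 was not tested.

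Promoters of this trio are shown because Cxcl1 and Cxcl2 are next to each other in gene order and were both lower in tumor. Cxcl6 read higher, within the limits given above for that dim probe. RefSeq sequences (assembly GRCr8, 250 bases before to 50 after the annotated start) were found for 40 of the 51 genes. Capitals mark GGGNNNNNCC, a pattern that many NF-kB sites have, TATAAA, the TATA box, or the AP-1-type TGANTCA and the interferon-response type GAAANNGAAA, each searched on both strands.
Cxcl1 (chr14:17479272-17479571, minus strand): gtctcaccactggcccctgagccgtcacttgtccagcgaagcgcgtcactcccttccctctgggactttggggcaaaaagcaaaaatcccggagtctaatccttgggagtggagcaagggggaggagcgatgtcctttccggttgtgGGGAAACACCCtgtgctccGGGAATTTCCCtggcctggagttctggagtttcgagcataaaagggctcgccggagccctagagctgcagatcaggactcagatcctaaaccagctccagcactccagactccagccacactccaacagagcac
Cxcl2 (chr14:17467206-17467505, minus strand): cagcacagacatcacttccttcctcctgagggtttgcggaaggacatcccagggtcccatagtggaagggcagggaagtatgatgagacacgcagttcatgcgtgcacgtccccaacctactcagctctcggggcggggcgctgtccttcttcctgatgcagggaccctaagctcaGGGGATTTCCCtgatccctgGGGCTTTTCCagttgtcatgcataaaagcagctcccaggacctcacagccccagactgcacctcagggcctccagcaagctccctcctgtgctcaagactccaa
Cxcl6 (chr14:17596368-17596667, minus strand): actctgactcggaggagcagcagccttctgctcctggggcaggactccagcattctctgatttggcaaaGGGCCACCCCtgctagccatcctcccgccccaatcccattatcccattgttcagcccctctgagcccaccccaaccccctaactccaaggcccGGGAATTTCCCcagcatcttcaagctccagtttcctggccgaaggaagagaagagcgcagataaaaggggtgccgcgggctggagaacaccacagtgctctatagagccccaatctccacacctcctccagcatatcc

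All capitals in these 3 sequences are GGGNNNNNCC, which 47.3% of all 33469 promoters of this length and 20 of the 40 chemokine and receptor promoters (50%) also hold. Cxcl1 has 2 such stretches, which begin 103 and 84 bases before the start, Cxcl2 has 2 (74 and 54 bases before) and Cxcl6 has 2 (181 and 88 bases before). The matches overlap within a stretch, since the pattern was read on both strands. The longest word that the Cxcl1 and Cxcl6 promoters share, a pair picked out after the sequences were seen, is the 13 bases CCGGGAATTTCCC. It is in these 2 promoters and in no other of the 33469 (0.00598%). The word was taken because both promoters hold it, so this share tests no link with expression. Cxcl1 was lower in tumor and Cxcl6, within its limits, higher. A match is a string of letters and was not tested as a binding site.

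A run of 5 neighbouring CC ligands likewise split. In the order of the GRCr8 annotation Ccl5, Ccl9, Ccl6, Ccl3 and Ccl4 follow each other with no other protein-coding gene between them. Ccl5 (NM_031116, RANTES, made by T and NK cells) read 15.20, 15.18 and 15.07 in normal lung and 12.38, 12.73 and 12.60 in tumor, 6.0-fold lower (-2.58 ± 0.10, adjusted p = 1.48e-05 with marked spots kept). The Ccl5 spot was marked on normal 2 and 3 and on all 3 tumor arrays. Its neighbour Ccl9 (NM_001012357), a macrophage product that acts on Ccr1, read 10.51, 10.47 and 10.46 against 13.36, 13.28 and 13.33, 7.18-fold higher (2.84 ± 0.05, adjusted p = 3.93e-06). For both genes the groups were far apart beside the spread within each.

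Ccl6 read 11.50, 11.65 and 11.69 in normal lung and 11.77, 11.20 and 11.46 in tumor. Its groups overlapped (-0.14 ± 0.16, adjusted p = 0.466 with marked spots kept). Ccl3 (NM_013025, MIP-1 alpha) read 13.24, 13.33 and 13.33 against 11.56, 11.41 and 11.48, 3.52-fold lower in a fit that rests wholly on marked spots (-1.81 ± 0.07, adjusted p = 1.09e-05). Ccl4 (NM_053858, MIP-1 beta) had no marked spot and was lower as well, with 8.06, 8.29 and 8.29 against 6.51, 6.33 and 6.17 (3.67-fold lower, -1.88 ± 0.12, adjusted p = 7.89e-05).

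The receptor Ccr1 did not follow the ligands that fell. Ccr1 (NM_020542), which binds Ccl3, Ccl5, Ccl6 and Ccl9, read 11.71, 11.70 and 11.58 in normal lung and 13.00, 12.82 and 12.85 in tumor, 2.34-fold higher (1.23 ± 0.08, adjusted p = 6.62e-05 with marked spots kept). Ccr1l1, a gene closely related to Ccr1, overlapped between groups (6.18, 5.67 and 6.18 against 6.10, 6.83 and 6.66).

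Xcl1 (NM_134361, lymphotactin, made by NK and CD8+ T cells) was dim. It read 5.12, 4.71 and 5.20 in normal lung and 4.36, 2.94 and 2.53 in tumor, where tumor 3 was not above background. Tumor 1 was close to the normal samples and tumors 2 and 3 were well below. The call was at -1.73 ± 0.50 (3.33-fold lower, adjusted p = 0.0268). It was lost without normal 1, 2 or 3 (adjusted p = 0.0735, 0.0515 and 0.0777) and without tumor 2 or 3 (0.0857 and 0.0661). With normexp it was lost through its fold change (log2 fold change -0.38). Its receptor Xcr1 was above background on no array.

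Beside Ccl3, Ccl4, Ccl5 and Xcl1, blood cell markers were read in the same fit. Of 6 NK cell markers, the 4 that passed the filter were all called lower (Klrd1 -2.42, Gzmb -2.44, Prf1 -2.25 and Nkg7 -2.21 on the log2 scale), Ncr1 and Klrb1c were above background on no lung array, and the summed signal was 83718 to 90094 in normal lung and 16240 to 18246 in tumor. Of 10 T cell markers that passed, Cd8a (-1.42), Zap70 (-1.33) and Cd247 (-1.17) were called lower and 7 were not called, among them Cd3d (-0.16) and Cd3g (-0.18), while Cd4 was above background on no lung array. The summed signal of the T cell markers was 32535 to 34116 in normal lung and 16604 to 18821 in tumor. Also called lower were 3 of 4 red cell markers (Hba-a2 -3.12, Alas2 -3.09 and Slc4a1 -2.61), with summed signals of 220133 to 228872 in normal lung and 131129 to 139643 in tumor, and 3 of 4 platelet markers. Of these, Gp1bb was at -1.91, Ppbp and Gp9 were above background on no tumor array and passed the filter through the normal arrays alone, and the remaining marker, Pf4, was higher by less than 2-fold (0.98). The summed platelet signal was 4927 to 5266 in normal lung and 7746 to 9075 in tumor. Macrophage markers, beside Ccl9 and Ccr1, showed 1 of the 6 that passed called higher (Cd14, 1.64), none lower, Marco, Cd163 and Itgam above background on no lung array, and summed signals of 411137 to 443469 and 492596 to 549657. The part of these lists in the results was not tested.

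**Figure D4:**
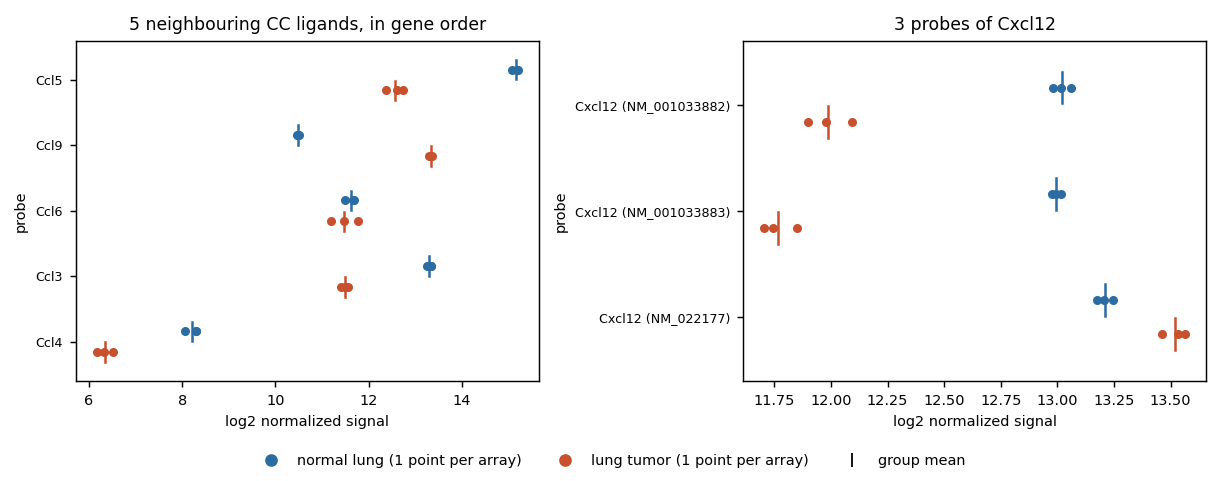
Log2 normalized signal on each lung array for the 5 neighbouring CC ligands in gene order (left) and the 3 probes of Cxcl12 (right), with marked spots kept and bars at the group means; neither axis starts at 0. Ccl9 lies higher in tumor between Ccl5, which is lower, and Ccl6, whose groups overlap; the Cxcl12 probe NM_022177 lies higher in tumor and the other pair lower.

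The promoters of Ccl9 and Ccl6 are shown as a pair of neighbours of which Ccl9 was called and Ccl6 was not. Capitals are as above.
Ccl9 (chr10:68868828-68869127, minus strand): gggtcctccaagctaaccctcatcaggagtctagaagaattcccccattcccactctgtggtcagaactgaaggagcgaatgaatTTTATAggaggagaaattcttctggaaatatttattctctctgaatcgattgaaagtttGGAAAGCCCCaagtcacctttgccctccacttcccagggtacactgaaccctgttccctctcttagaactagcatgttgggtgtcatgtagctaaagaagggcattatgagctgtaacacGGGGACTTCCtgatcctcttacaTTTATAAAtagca
Ccl6 (chr10:68883317-68883616, minus strand): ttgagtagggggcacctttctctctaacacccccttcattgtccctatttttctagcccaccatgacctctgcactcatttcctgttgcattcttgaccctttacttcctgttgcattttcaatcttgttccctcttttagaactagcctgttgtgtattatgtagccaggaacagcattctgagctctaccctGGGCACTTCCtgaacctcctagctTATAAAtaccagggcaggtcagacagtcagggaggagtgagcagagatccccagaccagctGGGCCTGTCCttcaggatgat

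Ccl6 has TATAAA beginning 32 bases before its start and GGGNNNNNCC stretches 56 bases before and 30 after. Ccl9 has TATAAA matches 165 bases before and 38 and 40 after its annotated start, and GGGNNNNNCC 106 before and 15 after. TATAAA is in 14.2% of all promoters and in 11 of the 40 of this family (27.5%), TGANTCA in 7.33% and 7 (17.5%), and GAAANNGAAA in 3.92% and 2 (5%), the latter in Ccl19 and Cxcl10. The share of TATAAA in the family was not tested against that of all promoters.

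Both homeostatic ligands of Ccr7, which guide dendritic and T cells to lymph nodes, were called, in opposite directions. Ccl19 (NM_001108661) read 8.69, 8.59 and 8.60 in normal lung and 10.64, 10.28 and 10.27 in tumor, 3.41-fold higher (1.77 ± 0.12, adjusted p = 9.53e-05). Ccl21 (NM_001008513), a product of lymphatic endothelium, read 14.82, 14.80 and 14.76 against 13.06, 12.93 and 12.89, 3.57-fold lower (-1.84 ± 0.06, adjusted p = 1.28e-05). Neither gene's groups overlapped, and the genes lie near each other, with Ccl27 and LOC689481 as the neighbours of Ccl19. Ccr7 was above background on normal 3 (4.91) and tumor 1 (3.81) alone.

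Cxcl12, the ligand that retains leukocytes and stem cells through Cxcr4, gave different answers by probe. NM_001033882 read 13.02, 12.98 and 13.06 in normal lung and 12.09, 11.98 and 11.90 in tumor. NM_001033883 read 12.99, 13.02 and 12.98 against 11.85, 11.74 and 11.70, and NM_022177 read 13.21, 13.18 and 13.25 against 13.46, 13.53 and 13.57. The former pair of probes was thus lower in every tumor and NM_022177 slightly higher in every tumor.

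With marked spots kept, the log2 fold changes were -1.03 ± 0.07 (adjusted p = 8.98e-05) for NM_001033882, -1.23 ± 0.06 (2.64e-05) for NM_001033883 and 0.31 ± 0.06 (0.00446) for NM_022177. Without the marked spot of tumor 3, NM_001033882 came to -0.98 and was not called, and without normal 2 or tumor 1 it passed 2-fold again (-1.003 and -1.041). NM_022177 differed from the others by 1.34 and 1.54 log2 units in fold change. An exact two-sided permutation test over the 3 against 3 arrays gave p = 0.1 for every probe pair, the smallest it can give. These pairs include NM_001033883 minus NM_001033882, a difference of -0.20 log2 units in fold change. The test therefore does not set NM_022177 apart from the other probes. The 3 accessions are transcripts of the same gene, and which exons the probes lie in is not given in the sources used here.

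Cxcl12 binds Cxcr4 and Ackr3. Cxcr4 (NM_022205) read 16.11, 16.11 and 16.16 in normal lung and 15.32, 15.29 and 15.29 in tumor, below 2-fold but with no overlap (-0.83 ± 0.05, adjusted p = 6.11e-05). Ackr3 (NM_053352), the atypical receptor that takes up Cxcl12 and Cxcl11, read 12.66, 12.72 and 12.77 against 11.46, 11.19 and 11.24, 2.67-fold lower (-1.42 ± 0.09, adjusted p = 7.06e-05 with marked spots kept).

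Ackr2 (NM_078621), which takes up inflammatory CC chemokines and is known from lymphatic endothelium, was dim. It read 4.21, 5.53 and 4.38 in normal lung and 3.18, 1.74 and 1.43 in tumor, where no array was above background. The tumors were thus at least 3.92-fold lower. The probe passed the filter through the normal arrays alone, so its call cannot show more than that bound. The call was lost with the scan as a block, when near-identical arrays were counted once, with the methods' paired t-test (adjusted p = 0.139) and with normexp (log2 fold change -0.35, less than the bound). Of 5 endothelial markers, the 4 that passed were called lower (Tek -2.74, Cldn5 -1.94, Pecam1 -1.88 and Emcn -1.37) and Cdh5 was above background on no lung array. Their summed signal was 232613 to 242061 in normal lung and 47675 to 48358 in tumor, and its part in the values of Ccl21, Cxcl12, Ackr2 and Ackr3 was not tested.

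No interferon-induced ligand of Cxcr3 was called. Cxcl11 (NM_182952) read 8.73, 8.89 and 8.77 in normal lung and 9.84, 9.67 and 9.74 in tumor, just short of 2-fold (0.96 ± 0.08, adjusted p = 0.000191). It was called when normal 2 was left out (1.00) and with the 75th percentile shift (1.05). Cxcl10 read 11.97, 11.98 and 11.88 against 11.28, 11.57 and 11.45 (-0.51 ± 0.09, adjusted p = 0.00426 with marked spots kept). Cxcl9 was above background on no array, and Cxcr3 overlapped between groups (0.24 ± 0.11, adjusted p = 0.132).

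No other member was called. The monocyte attractants Ccl2 (0.33 ± 0.06, adjusted p = 0.00597 with marked spots kept) and Ccl7 (0.58 ± 0.14, adjusted p = 0.0136) were slightly higher, while their receptor Ccr2 was above background on normal 3 alone. Fractalkine, Cx3cl1, was higher (0.60 ± 0.06, adjusted p = 0.000428) and its receptor Cx3cr1 lower (-0.83 ± 0.17, adjusted p = 0.00857). Ccl20 and its receptor Ccr6 had log2 fold changes of -0.04 ± 0.08 and 0.33 ± 0.08. Cxcl14, marked on all 6 arrays, was at -0.37 ± 0.11, and Ccl17 at 0.25 ± 0.15. Ccl26, which passed the filter through the tumor arrays alone, read 3.30, 1.93 and 3.32 in normal lung and 4.22, 3.28 and 3.36 in tumor. Its groups overlapped (adjusted p = 0.204), and it was called only with the 75th percentile shift (1.04, adjusted p = 0.0424).

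Genes that carry the chemokine signal, and others linked to it, were read in the same fit, in which 27% of mRNA probes were called. Of 33 signaling genes that passed the filter, 3 were called higher with marked spots kept (Plcb2, Ncf1 at 2.04, and Grk2, which was above background on 1 of 3 normal arrays) and 1 lower (Grk5, -1.28, a receptor kinase), and the inhibitory G protein subunits Gnai2 (-0.83) and Gnai3 (-0.67) were not called. Of 25 inflammatory inducers and regulators, 3 were called higher (of which Il10 passed the filter through the tumor arrays alone) and 5 lower, among them Il1a (-2.85), Csf3 (1.78), Csf1 (-1.75) and Il1b (-1.63), and the NF-kB inhibitor Nfkbia was lower as well (-1.28). Of 13 chemokine-like genes outside the name rule, 2 were higher and 4 lower, among them S1pr1 (-2.44), Cmklr1 (-2.12), Dpp4 (-1.33) and Cklf (1.46). The lower ones include Ppbp, which passed the filter through the normal arrays alone. The median log2 fold changes of these lists were -0.15, -0.15 and -0.79, beside 0.02 for all mRNA probes.

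Counted once, the near-identical arrays left 11 of the 18 calls of the fit with marked spots kept. Ccl28, Cxcl13, Ccl9, Ccl19 and Cxcl17 stayed higher, as did Cxcl6, which passed the filter through the tumor arrays alone. Ccl5, Ccl4, Ccl21, Ccl3 and Cxcl1 stayed lower. Of all mRNA probes, 15.6% were called in that fit (6.48% higher and 9.07% lower). The calls of Ackr2, Xcl1, Cxcl2, Ackr3, Ccr1 and both Cxcl12 probes were lost, with adjusted p of 0.15, 0.289, 0.0647, 0.0508, 0.0517, 0.0719 and 0.0521, so no receptor call remained. Among the companion and marker genes named above, Plcb2, Grk2, Csf3, Il10, Mmp8, Zap70, Cd247, Gp9, Pecam1, Krt8, Cd79b and Cd22 were likewise not called when arrays were counted once, and Plcb2 in tumor 1 (4.76) was close to normal lung (4.43, 3.72 and 4.30). Within the first scan, tumor 1 alone against the 3 normal arrays, 16 of the 18 were at least 2-fold apart. The exceptions were Xcl1 (-0.65) and Cxcl12 NM_001033882 (-0.93). Tumor 1 is one of the arrays behind the calls, and no called probe has overlapping groups. The direction in tumor 1 was thus fixed in advance and is no separate check. With the scan as a block, the fit also sets tumor 1 alone against normal lung, since tumors 2 and 3 fill their scan. Its differences are the same ones and are no further check. In it Ackr2 (-1.53), Xcl1 (-0.65) and Cxcl12 NM_001033882 (-0.93) were not called, while Cxcl11 (1.05) and Cxcl16 (1.02) passed 2-fold.

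Blood was compared between 1 control and 1 NNK array, so its differences have no replicate check and no test. Of the 53 probes, 33 (62.3%) were above background on at least 1 blood array, beside 67.3% of mRNA probes, and 30 of them could be compared without marked spots. The NNK array was at least 2-fold higher for 12 (40%) and lower for 4 (13.3%), beside 26% and 17.8% of mRNA probes. Together these 16 probes were 53.3% of those compared, beside 43.8% of mRNA probes, and with the normexp background correction the counts were 5 higher and 2 lower. The lower count was 8 with quantile normalization over all 8 arrays and 9 with the authors' values. The latter also hold marked spots, which when kept gave 5 lower without any other change.

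Cxcr3, found on activated T and NK cells, read 6.98 in control and 9.38 in NNK blood, 5.27-fold higher. Cxcr4 read 10.89 and 12.70 (3.52-fold) and Ccr1 8.40 and 9.42 (2.03-fold). Over the settings run, the log2 difference ranged from 1.96 to 3.13 for Cxcr3 and from 1.001 to 1.82 for Cxcr4. The Ccr1 difference was below 2-fold with the 75th percentile shift (0.71 log2 units), normexp (0.92) and the authors' values (0.90). Ccr9, which marks cells bound for the gut, was not above background in control (1.95) and read 5.76 in NNK blood, at least 4.61-fold higher, though with normexp the difference was 0.77 log2 units. Ccr7 went the other way, from 4.89 to a value not above background (3.44), at least 2.59-fold lower, as did Cxcr1 (4.76 to 2.52, at least 2.36-fold), and with normexp these differences were -0.32 and -0.40.

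Among ligands, Cxcl16 read 7.16 and 9.30 (4.39-fold higher), Cxcl2 5.25 and 6.78 (2.88-fold), Ccl5 11.62 and 12.78 (2.24-fold) and Ccl3 8.16 and 9.28 (2.17-fold). Over the settings run, the log2 difference of Cxcl16 ranged from 1.69 to 2.74. Cxcl17, Cxcl12 (NM_001033883) and Cxcl11 were above background in NNK blood alone and at least 2.95-fold, 2.09-fold and 2.01-fold higher, although with normexp their differences were 0.41, 0.28 and 0.53 log2 units and that of Cxcl2 was 0.78. Ccl2 went from 9.23 to 7.35 (3.69-fold lower) and Xcl1 from 6.49 to a value not above background (at least 7.17-fold lower, but -1.02 log2 units with normexp). Cxcl6 read 8.41 on a marked spot in control and was not above background in NNK blood (3.74), at least 25.6-fold lower if that spot is kept, but -2.36 log2 units with normexp.

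**Figure D5:**
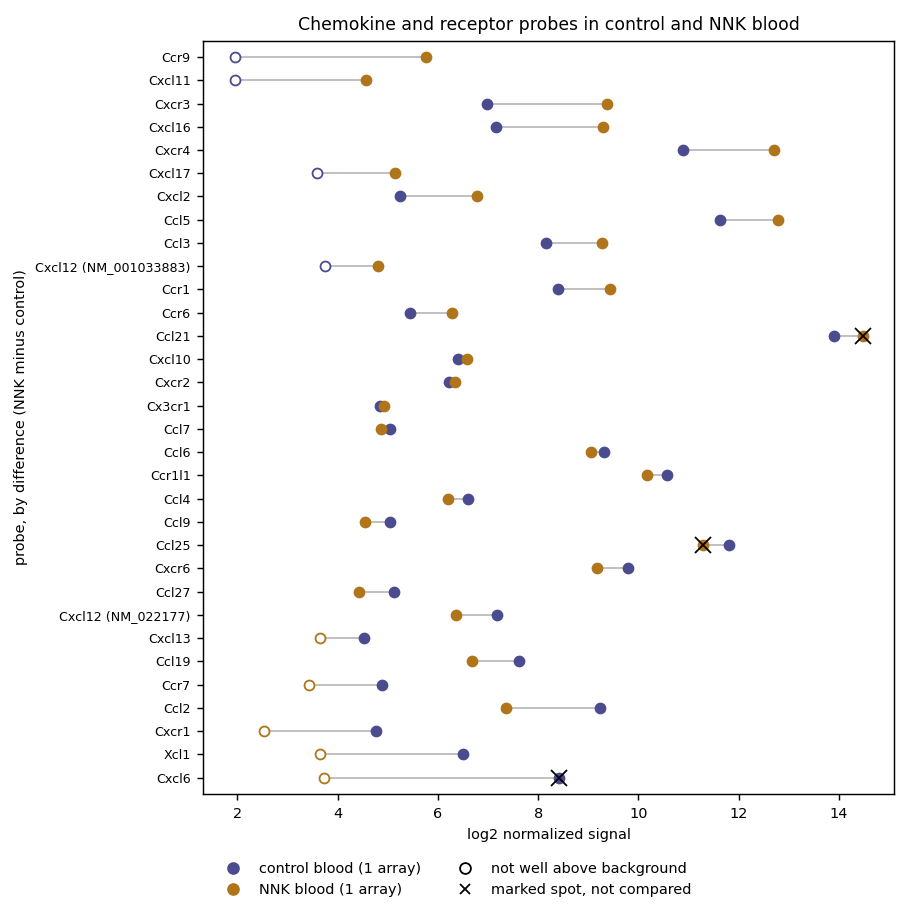
Log2 normalized signal of 32 probes above background in blood, on the control and the NNK array, sorted by their difference; open circles are not above background and crosses mark spots left out. Among probes above background on both arrays and not marked, Cxcr3 (6.98 to 9.38) is highest in the plot and Ccl2 (9.23 to 7.35) lowest; the order of rows with an open circle rests on values not above background.

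The NNK blood array was also brighter before normalization, with a 75th percentile of the signal of 206 against 95.4. Of the neutrophil markers 4 of 5 were at least 2-fold higher in NNK blood (summed signal 15408 in control and 73293 in NNK), of the T cell markers 6 of 10 (35642 and 39456) and of the NK cell markers 3 of 5 (Gzmb 21.4-fold, Nkg7 13.1-fold and Klrd1 3.33-fold; summed signal 64203 and 57379, led by Prf1 at 15.96 and 15.68 log2 units), while 3 of 4 platelet markers were lower (150370 and 85280). Their part in the blood differences was not tested. With a shift to the 75th percentile in place of quantile normalization, the median difference over all probes moved from -0.11 to -0.26 log2 units, Ccl3 from 1.12 to 0.84, and Ccl5 from 1.16 to 0.28. The Ccl5 difference was also below 2-fold with quantile normalization over all 8 arrays (0.75) and with the authors' values (0.71).

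Some probes were above background in 1 tissue only. Ccl17, Ccl20, Ccl28, Cx3cl1, Cxcl1, Cxcl14, Cxcl12 (NM_001033882) and Ackr3, 8 probes in all, were above background on all 6 lung arrays and on neither blood array, though other Cxcl12 probes were seen in blood. Ccl25 and Ccr9, a ligand and its receptor, were above background in blood and on no lung array. Ccr3, Cxcl9, Cxcr5 and Xcr1 were above background on no array.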

How the data were processed

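RNA of 3 normal lung, 3 lung tumor and 2 blood samples was hybridised to 1-colour Arraystar rat lncRNA arrays. The authors deposited 1 scanner file per array, with the intensity of each spot as background-subtracted by Agilent Feature Extraction 10.5.1.1 and not normalized between arrays. They also deposited log2 values that were quantile-normalized in GeneSpring, and these served as an alternative. The description of the NNK blood sample repeats that of a tumor, but its title, source and tissue say blood, and it was used as blood.

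Here the signals of the 42136 non-control spots were taken to log2 and quantile-normalized, the 6 lung arrays apart from the 2 blood arrays (R 4.3.3, limma 3.58.1). No spot was saturated, and marked spots stayed out unless stated. Probes well above background on at least 3 lung arrays, or 1 blood array, and with at least 2 values per lung group were fitted with lmFit and eBayes, group being the only term, and p-values were Benjamini-Hochberg adjusted over all 12471 probes tested (15803 with marked spots kept). Of 15323 mRNA probes, 14274 were given a symbol by their accession in the RefSeq gene table of GRCr8. A bound sets the brighter group against whichever is higher, the dim probe's signal or the lowest signal that cleared background on that array. The number of arrays limits the precision.

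The labels call the lung samples matched, so the replicate number was also fitted as a block. Deviations from the group means of same-numbered samples correlated at 0.15, -0.03 and 0.16. Whether the normal samples came from separate animals cannot be read from the values, and p-values measure the spread between these samples. The fits were tested on simulated data in which every array varied independently, so the likeness of the near-identical arrays was not part of that test. Promoter sequences were searched in Python 3.11.15. Members and companion lists were chosen with earlier results of these data known. Members enter every count, and the values of 1 member and 1 marker gene are not reported here. Values per array were given for members called in lung, for those at least 2-fold different in blood and for their known receptors or ligands, and from companion lists up to 4 called genes were named, with markers named as needed. Only probes of the same gene were tested against each other.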

Additional observations from a re-analysis of the deposited data

How the results depend on the processing

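Under the alternatives run, every called lung member kept its direction and the replicate block changed no call (6 higher and 5 lower; with marked spots kept, 7 and 11). Of the 6 higher calls, an adjusted p with no fold change gave 14. The authors' values also hold the marked spots (40 probes tested), so their lower count, given next, belongs beside that with marked spots kept. The scan block sets tumor 1 alone against normal lung. Of the 5 lower calls, marked spots kept gave 11, the authors' values 12, no fold change 9, the normexp background correction, the stricter filter, the paired t-test of the methods and the scan block (slide block) 3 each, and near-identical arrays counted once 2. With marked spots kept, a combination chosen after seeing the data, the 11 lower calls came to 5 with those arrays counted once. Leaving out 1 array gave 6 to 7 higher and 4 to 6 lower calls, or 7 to 8 and 9 to 11 with marked spots kept. Xcl1 was lost without normal 1, 2 or 3 or tumor 2 or 3. Cxcl6 was lost under normexp (0.24, adjusted p = 0.0697), as were Ackr2 (-0.35) and Xcl1 (-0.38) through their fold change. Cxcr4 passed 2-fold with quantile normalization over all 8 arrays (-1.03) and with the authors' values (-1.04). Cxcl16 passed it with the same alternatives (1.11 and 1.12). In blood the 12 higher probes came to 5 under normexp. The 4 lower probes came to 8 with quantile normalization over all 8 arrays and 9 with the authors' values, which also hold marked spots. They came to 5 with marked spots kept, 2 under normexp and 1 where both arrays had to be above background. The causes were not tested. Signals near background and outlier marks on tumor arrays limit Ackr2, Xcl1, Cxcl6 and the 11 probes tested only with marked spots kept.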
